A study of Mus musculus with 9 samples.

Results

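The response of RAW264.7 cells to lipopolysaccharide (LPS, the endotoxin in the outer membrane of Gram-negative bacteria) was described across all genes by comparing 3 libraries from LPS-treated cells with 3 libraries from untreated control cells. These are 6 of the 9 RNA-seq libraries of the series, and the 3 libraries of cells given sodium butyrate together with LPS were left out. RAW264.7 is a macrophage-like mouse line transformed by Abelson leukaemia virus, so it is a single dividing tumour-derived line and not a primary macrophage. The labels give the treatments as Control and LPS and number the replicates 1 to 3. They do not give the dose of LPS or the time of harvest, and the study's methods do not state them for these libraries. The design text calls the replicates biological without naming separate cultures, so the p-values reflect only how far these libraries scatter, and part of that scatter may be technical.

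LPS is bound by CD14 and passed to a receptor made of TLR4 and MD-2 (gene Ly96). The receptor signals through 2 adaptor branches. The MyD88 branch acts from the cell surface through IRAK kinases and leads to NF-kB and AP-1, which switch on inflammatory cytokines. The TRIF branch (gene Ticam1) acts from endosomes through the kinases TBK1 and IKK-epsilon and leads to interferon beta, which is secreted, acts back on the same cells through STAT2 and IRF9, among others, and switches on antiviral genes. In macrophages both branches are followed by brakes such as SOCS proteins, A20 (gene Tnfaip3) and RNA-degrading factors.

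Depth was similar in both groups, with 44.9 M to 57.2 M recovered reads in the control libraries and 37.6 M to 52.3 M in the LPS libraries. Across genes, as a description only, log2 values of 2 libraries of one group correlated at 0.990 to 0.994 and those of a control and an LPS library at 0.930 to 0.931. All values below are normalised counts (gene counts divided by 1 size factor per library, not by gene length), so they compare libraries and not the levels of different genes. Rankings of genes by gain or loss in counts are descriptions that also depend on gene length. Errors of levels are SDs over 3 libraries, and log2 changes of log2(normalised count + 1) carry their standard error.

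The promoters of 5 strongly induced genes are shown because they carry the letters that the factors of the 2 branches are known to bind. Each is the 250 bases before the start site in RefSeq on GRCm38.p6, written 5′ to 3′ on the gene's strand. Capitals mark every match to the interferon response motif GAAANNGAA, bound by IRF and STAT complexes, or to the kB motif GGNNTTTCC, bound by NF-kB, searched on both strands. Cxcl10, Gbp2, Rsad2 and Ifit3 were the 4 largest rises with an interferon response motif among genes with an unambiguous entry, and Cxcl2, with the kB motif, was chosen after its values were seen.
Cxcl10 (chr5:92348890-92349139, minus strand): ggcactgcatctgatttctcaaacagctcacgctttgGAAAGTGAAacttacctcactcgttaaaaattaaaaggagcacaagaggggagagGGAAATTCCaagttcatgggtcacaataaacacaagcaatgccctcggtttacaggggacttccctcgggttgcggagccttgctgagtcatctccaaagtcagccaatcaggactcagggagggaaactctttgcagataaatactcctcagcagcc
Gbp2 (chr3:142620413-142620662, plus strand): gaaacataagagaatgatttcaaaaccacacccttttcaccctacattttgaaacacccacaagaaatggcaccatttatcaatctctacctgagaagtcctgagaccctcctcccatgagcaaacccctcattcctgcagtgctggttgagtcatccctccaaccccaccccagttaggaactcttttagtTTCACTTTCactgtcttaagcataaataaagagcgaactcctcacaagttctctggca
Rsad2 (chr12:26456453-26456702, minus strand): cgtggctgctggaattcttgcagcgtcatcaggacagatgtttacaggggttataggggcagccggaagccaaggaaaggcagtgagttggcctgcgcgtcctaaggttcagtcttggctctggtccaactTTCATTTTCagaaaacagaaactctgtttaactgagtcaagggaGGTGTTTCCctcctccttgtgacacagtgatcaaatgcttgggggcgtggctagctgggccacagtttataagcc
Ifit3 (chr19:34583279-34583528, plus strand): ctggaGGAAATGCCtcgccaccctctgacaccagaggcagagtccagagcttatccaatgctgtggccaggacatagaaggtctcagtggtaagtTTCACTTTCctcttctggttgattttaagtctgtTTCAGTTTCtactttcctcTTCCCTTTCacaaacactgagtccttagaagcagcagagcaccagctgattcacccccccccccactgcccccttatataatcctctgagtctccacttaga
Cxcl2 (chr5:90903649-90903898, plus strand): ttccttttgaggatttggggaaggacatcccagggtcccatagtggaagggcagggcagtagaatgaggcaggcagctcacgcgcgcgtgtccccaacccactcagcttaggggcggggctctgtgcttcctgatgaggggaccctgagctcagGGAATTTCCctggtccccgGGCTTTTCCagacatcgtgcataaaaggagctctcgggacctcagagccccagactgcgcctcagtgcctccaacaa
Ifit3 has 3 interferon response matches, which begin 155, 121 and 102 bases before the start site. It also has a kB match at 245 bases. Cxcl10 has a match to each motif, at 213 bases for interferon and 158 bases for kB, and Rsad2 likewise at 119 and 75 bases. Gbp2 has an interferon match at 58 bases and no kB match in this window, and Cxcl2 has kB matches at 96 and 77 bases and no interferon match. No match of one motif overlaps a match of the other in these windows. A match is a description of letters and says nothing of whether the factor was bound in these cells. Only these letters were searched, here and below, so a window without a match may still hold a site with other letters.

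Levels of these genes were low in the untreated cells except for Cxcl2. Cxcl10, a chemokine that attracts activated T cells, was at 7.95, 3.0 and 6.04 in the control libraries and 20716, 23617 and 24150.2 with LPS. Gbp2, an interferon-inducible GTPase that coats intracellular pathogens, was at 6.36, 4.0 and 2.01 and 11186, 12016 and 10951. Rsad2, which makes a chain-terminating nucleotide against viruses, was at 14.3, 16 and 28.2 and then 39517, 40068 and 39122. Ifit3, which binds viral RNA together with IFIT1, was at 23.1, 20.0 and 8.05 and then 22761, 25697 and 24855. Cxcl2, a neutrophil chemokine, was at 344, 380.0 and 301 without and 208428, 211367 and 200282 with LPS. For each of them every LPS library was far above every control library, with log2 changes of 9.24 (Cxcl2) to 11.82 (Cxcl10) and limma adjusted p of 2.86e-12 or less.

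Over all 11701 tested protein-coding genes on nuclear chromosomes, the share of promoters with either motif rose with the size of the induction. The windows here run from 250 bases before to 50 after the start of the canonical transcript on GRCm39. The interferon response motif was in 43.7% of promoters of genes called at least 64-fold higher (38 of 87) and in 26.4% between 16- and 64-fold. It was in 19.8% between 4- and 16-fold, 11.2% between 2- and 4-fold and 8.26% below 2-fold, against 8.14% of all of them. The kB motif went from 19.5% in the top class to 6.81% between 2- and 4-fold, against 6.41% of all. Of the 87 promoters in the top class, 33 had the interferon motif alone, 12 the kB motif alone, 5 both and 37 neither. The TATA box letters TATAAA, read on both strands, were in 21.8% of the top class and 7.94% of all, and the AP-1 letters TGANTCA in 14.9% and 5.41%. The CCAAT box went the other way, at 34.5% and 39.8%. Base composition moved with the classes: the median GC content was 47.3% in the top class and 58.0% over all, and the median number of CG pairs per window was 3 against 17. Many strongly induced genes are copies of each other, among them members of the chains described below, so their promoters are not independent. The part of composition or of such copies in these shares was not tested. In genes called at least 4-fold lower, 4 of 113 promoters had the interferon motif and 4 the kB motif.

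**Figure D1:**
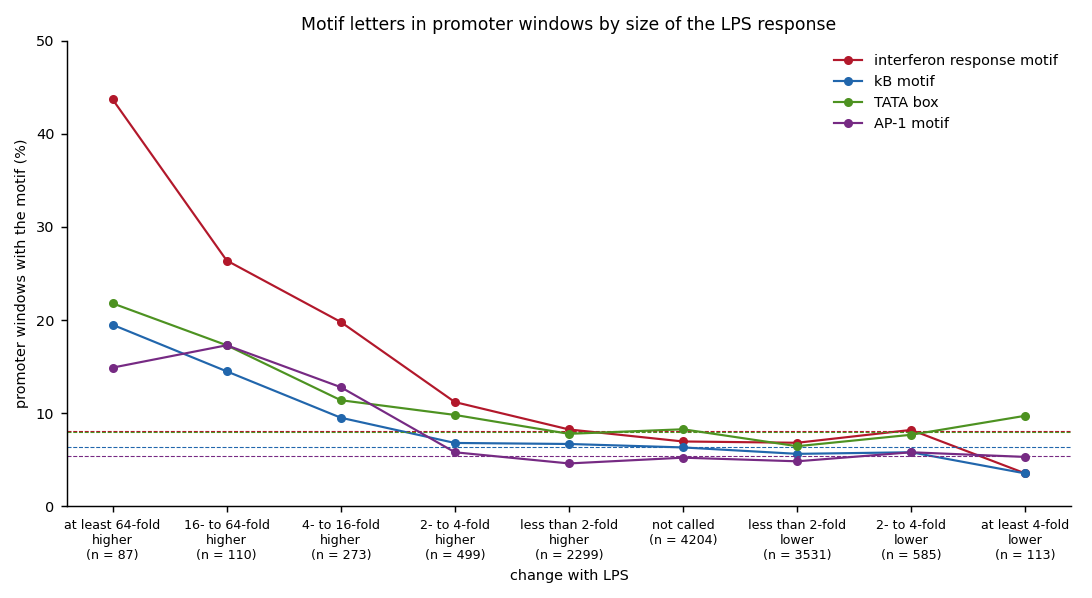
Share of promoter windows (vertical axis, percent, from 0) that hold the interferon response motif, the kB motif, the TATA box or the AP-1 motif, by size class of the LPS response (horizontal axis; number of promoters under each class). The interferon response motif goes from 43.7% in genes at least 64-fold higher to 3.54% in genes at least 4-fold lower, and dashed lines mark each motif's share of all tested protein-coding genes.

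Of 13690 genes tested, LPS changed 8037 (58.7%) at an adjusted p under 0.05, with 3651 higher (26.7%) and 4386 lower (32.0%). These shares of 26.7% and 32.0% are the background for every count of list members below. At least 2-fold changes were fewer, with 1153 genes higher (8.42%) and 756 lower (5.52%), a split that turns on the same-sum scale (929 higher and 1293 lower), and 562 genes were at least 4-fold higher (4.11%). The 2 directions differed in reach: 351 genes were called at least 8-fold higher and 25 at least 8-fold lower, 88 were at least 64-fold higher and 0 at least 64-fold lower, and 13 were at least 1024-fold higher. The split of the calls depends on the scale. On the same-sum scale, with every library scaled to the same sum, log2 changes shifted by -0.23 and 2200 genes were called higher and 6932 lower, whereas TMM scaling (shift 0.036) gave 4018 higher and 4048 lower. The LPS libraries lay entirely above or below the control libraries for 8764 genes (64.0%). Calls depended on level, from 25.4% of genes with a mean under 30 normalised counts to 73.5% of those above 10000.

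**Figure D2:**
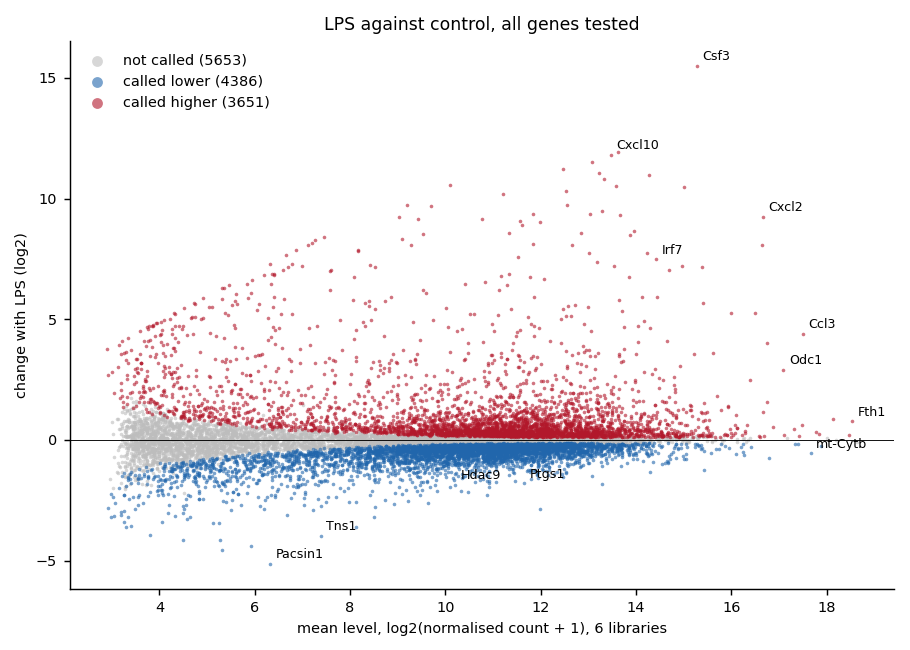
Each point is 1 of 13690 tested genes, with the mean level over the 6 libraries (horizontal axis, log2 of normalised count + 1) and the change with LPS (vertical axis, log2 scale). Genes called higher (3651) and lower (4386) are coloured, and the cloud of rises reaches 15.51 (Csf3) while the largest fall among labelled genes is -5.12 (Pacsin1).

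The share of normalised counts in the induced genes, whose rise is fixed by their choice, is given as a description. The genes called at least 2-fold higher held 4.57% ± 0.027 of the normalised counts of the control libraries and 17.7% ± 0.13 of the LPS libraries (n = 3 each), and the 562 genes at least 4-fold higher went from 0.844% ± 0.0086 to 9.58% ± 0.063. The genes called at least 2-fold lower went from 1.82% ± 0.023 to 0.633% ± 0.012.

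The largest gain in counts was that of Ccl3, a chemokine for monocytes and T cells, which was at 16930.3, 16736 and 16562 in control and 334268, 373499 and 353886 with LPS, 21.1-fold higher (log2 change 4.40 ± 0.051, limma adjusted p = 1.82e-15). Odc1, which makes putrescine from ornithine as the first step of polyamine synthesis, was at 33825, 32209 and 32132 and rose to 245562, 248879 and 245677, a 7.54-fold change (adjusted p = 3.09e-14). Irg1 (now Acod1), which makes itaconate from a TCA cycle intermediate, went from 763, 783 and 702 to 203844, 211013 and 200721. For all 3 genes the lowest LPS library was well above the highest control library.

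Rnf213, a very large ubiquitin ligase that coats bacterial LPS in the cytosol, was at 12136, 12797 and 13620.4 in control and 245358, 171823 and 207178 with LPS. The LPS libraries differed from each other for Rnf213, but the lowest of them was far above the highest control library (16.2-fold between the means). Slfn4, a myeloid Schlafen protein, went from 3290.0, 3510.4 and 3235 to 134830, 123317 and 122754. Fth1, the iron-storing ferritin heavy chain, and Spp1 (osteopontin) were already abundant and rose 1.72-fold and 1.84-fold (adjusted p = 8.69e-07 and 1.51e-08). Fth1 was at 281845, 262984 and 292217 in control and 433236, 513930 and 490625 with LPS.

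The 2 largest losses in counts were those of mitochondrially encoded transcripts. mt-Cytb, a subunit of respiratory complex III, was at 240898, 256148 and 243084 in control and 160921, 171468 and 173959 with LPS, and mt-Nd1, of complex I, was at 141115, 147149 and 135562 and 77565, 86027 and 89854. Neither pair of ranges overlaps, and the changes were -0.55 ± 0.054 and -0.74 ± 0.060 (adjusted p = 1.77e-06 and 3.05e-07). Of 15 tested mitochondrial messenger and ribosomal RNAs 7 were lower and 1 (mt-Rnr1, a ribosomal RNA) was higher, while mt-Co1 had means of 303048 ± 17319 and 301839 ± 8739.5, with a log2 change of -0.0046 ± 0.058 that was not called. The share of mitochondrial counts was 2.06% to 2.27% in control and 1.36% to 1.46% with LPS, and its part in other results was not tested. Among the nuclear genes in the 10 largest losses was Scd2, a fatty acid desaturase, which went from 61929 ± 2180.2 to 26303 ± 1155 (2.35-fold lower, adjusted p = 2.81e-10). Csf1r, the receptor for the macrophage growth factor CSF1, went from 42749 ± 954 to 25016 ± 549.7 (adjusted p = 8.69e-09).

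**Figure D3:**
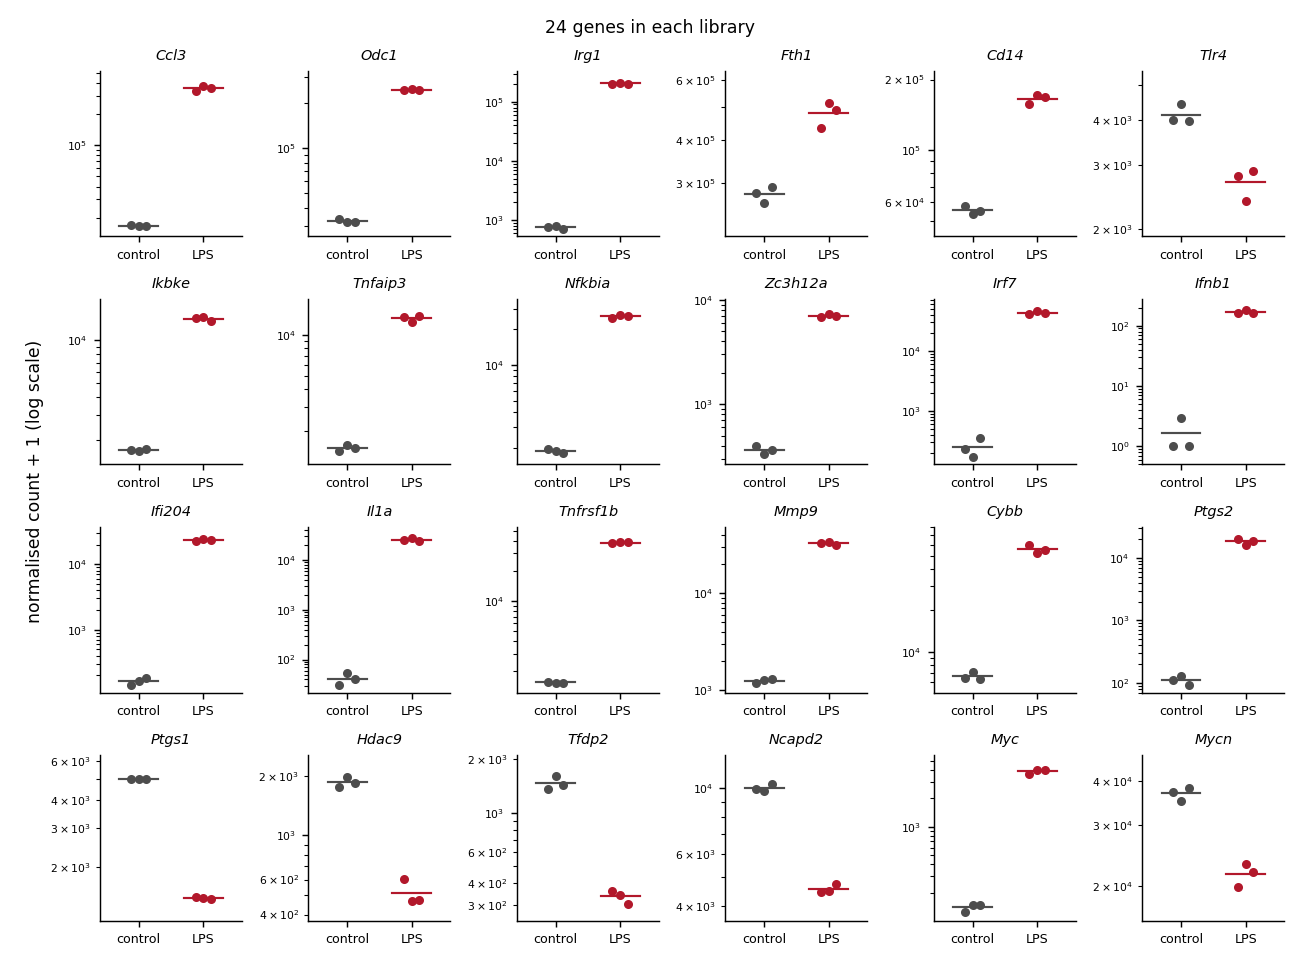
Normalised count + 1 (vertical axis, log scale) of 24 genes in each of the 3 control and 3 LPS libraries, one point per library, with horizontal bars at the group means. Rising genes such as Irf7 and Ptgs2 and falling genes such as Ptgs1 and Hdac9 have no overlap between groups, and Mycn and Myc move in opposite directions.

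At the receptor, Cd14 and Tlr4 moved in opposite directions. Cd14, already abundant, was at 57718, 53768 and 55209 in control and 157150, 171563 and 168367 with LPS, 2.98-fold higher (log2 change 1.58 ± 0.052, adjusted p = 4.1e-11). Tlr4 fell from 3999, 4430.5 and 3985 to 2807, 2384 and 2887, 1.54-fold (log2 change -0.62 ± 0.074, adjusted p = 1.1e-05). Ly96, the MD-2 chain, and the related pair Cd180 and Ly86 rose by 0.51, 0.74 and 0.60 on the log2 scale. Of 9 other Toll-like receptor genes tested, 6 were higher and 1 lower (5 and 2 on the same-sum scale), with the largest rise in Tlr3, the sensor of double-stranded RNA (from 44 ± 3.22 to 2011 ± 94.5, 45.7-fold). Tlr2, which senses bacterial lipoproteins, rose 2.15-fold.

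Of 24 adaptor and kinase genes, 14 were higher and 4 lower, with a median log2 change of 0.31 beside -0.042 over all genes tested. The same list gave 10 higher and 8 lower on the same-sum scale. The kinase IKK-epsilon (Ikbke) was at 1725, 1696 and 1728 in control and 14271, 14622 and 13719 with LPS, 8.28-fold higher (adjusted p = 2.79e-14). The related kinase Tbk1 rose 2.28-fold and the adaptor Ticam1 2.46-fold, beside 2.07-fold for Myd88 and 3.88-fold for Irak2. The ubiquitin ligase Peli1 went from 1192 ± 58.5 to 6116 ± 339. Several brakes rose as well. Irak3, a kinase-dead IRAK, rose 5.74-fold (from 462 ± 36 to 2651 ± 79.7), Tnfaip3 8.83-fold (from 1493 ± 73.6 to 13174 ± 643) and Tnip1, the partner of A20, 3.74-fold. Trim30a, which promotes the degradation of TAB adaptors, went from 48.9 ± 16.3 to 12880.4 ± 526. Brakes that fell were Sarm1 (from 60.6 ± 22.6 to 16.8 ± 4.59) and Sigirr (from 433 ± 46.5 to 209 ± 24.5), and the brake list as a whole gave 13 higher and 4 lower of 22, but 9 and 9 on the same-sum scale.

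All 11 NF-kB and IkB genes were called higher, 9 of them at least 2-fold. The inhibitors led: Nfkbiz, a nuclear IkB that cooperates with NF-kB at secondary genes, went from 307 ± 20.8 to 7694 ± 539 (25.1-fold), and Nfkbia, which holds NF-kB in the cytoplasm, from 1869.7 ± 71.6 to 25808 ± 649 (13.8-fold). Nfkb1 rose 4.54-fold, Rel 2.55-fold and Relb 1.93-fold, while Rela, the p65 subunit, rose 1.17-fold and was not called on the same-sum scale.

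Among immediate early factors, 14 of 25 were higher and 3 lower. Batf2 was at 113, 79 and 114 in control and 2101, 2494 and 2364 with LPS, Atf3, a repressor of cytokine genes, rose 5.03-fold and Junb 4.05-fold. Of the other members, Fos rose 1.5-fold and Egr3 fell 3.53-fold (from 197 ± 5.82 to 55.9 ± 8.62). Egr1 was at 12.1 ± 3.58 and 17 ± 5.31, which was not called (log2 change 0.46 ± 0.42). Of 12 MAP kinase phosphatases, which switch off ERK, JNK and p38, 10 were higher and 2 lower. Dusp5, which inactivates ERK in the nucleus, rose 16.5-fold (from 315 ± 13.7 to 5192 ± 158), Dusp1 5.06-fold and Dusp2 3.8-fold, and Dusp9 fell 2.71-fold. In the list of factors that degrade or stabilise mRNA, 19 of 27 were higher and 2 lower (12 and 5 on the same-sum scale). Zc3h12a (regnase-1) was at 397, 329 and 360.1 in control and 6886, 7316 and 7032 with LPS and Zfp36 (tristetraprolin) rose 12.2-fold, while Arid5a, which protects Il6 mRNA, rose 2.89-fold.

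Interferon beta was the only interferon gene with enough reads to test. Of 12 interferon genes in the list, 10 had no reads in any of the 6 libraries and 1 more had too few to test. Ifnb1 was at 0, 2.0 and 0 in control and 158, 178 and 164 with LPS (log2 change 6.86 ± 0.47, adjusted p = 6.49e-08), so the libraries with LPS do not overlap those without. Downstream, Irf7, which amplifies interferon transcription, was at 229.8, 168 and 358 and rose to 41816, 46755 and 42559.5, 173-fold. Stat2 and Irf9, which carry the signal of the interferon receptor to the genome, rose 12-fold and 8.02-fold (adjusted p of 6.19e-10 or less). The kinases Jak2 and Tyk2 rose 5.12-fold and 2.13-fold. Receptor genes moved less: Ifnar1 rose 1.27-fold, Ifngr1 fell 1.52-fold, and Ifnar2 was at 1997 ± 71.3 and 2007 ± 56.5 (not called). On the same-sum scale Ifnar1 was not called and Ifnar2 was called lower.

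Several antiviral families rose almost as a whole. The lists were chosen with earlier results of these data known, so their counts are given as descriptions. In the list of IFIT, MX, ISG and other antiviral genes, 40 of 40 were higher, 39 at least 2-fold, with a median log2 change of 6.61. All 13 p200 genes, which bind cytosolic or nuclear DNA, were higher (median 6.63), as were all 8 guanylate-binding proteins (median 9.04) and 7 of 8 immunity-related GTPases (median 6.33), the exception Irgq being 1.38-fold lower. Schlafen genes gave 7 higher and 0 lower of 8. These counts did not change on the same-sum scale. Related lists were less uniform. Oligoadenylate synthetases and RNase L gave 9 higher and 0 lower of 11, and TRIM ligases 14 higher and 9 lower of 25 (14 and 11 on the same-sum scale). Ifi204 was at 139, 164 and 179 in control and 22436, 24122 and 23948 with LPS, and Aim2, the p200 member that starts an inflammasome, rose only 1.63-fold (from 2505 ± 123 to 4086 ± 251). Some members of these families are near-identical copies, so reads could have been dropped or moved between them. The single values of such copies are less certain than the family's direction. The identifier listed as Gbp5 is named Gbp2b in GENCODE M39, and that listed as Gbp6 is named Gm43302.

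There were 7 genes with no read in any control library and at least 100 normalised counts with LPS. Cxcl11, a ligand of CXCR3, was at 259.7, 443 and 339 with LPS, at least 124-fold higher at a floor of 3 reads per library. Il1f6 (now Il36a) was at 307, 317 and 297, at least 109.5-fold higher, and Tnfsf10 (TRAIL, a death receptor ligand) at 199, 205 and 195, at least 71.3-fold. The others were Trim30d, Tgtp2, Slfn1 and Fbn1 (fibrillin-1, a matrix protein), the last at 160.4, 149 and 162 and at least 56.2-fold higher. Fbn1 was chosen after its values were seen. A further 16 genes went from a mean under 10 to a mean over 1000, Csf3 among them at 0, 0 and 4.02 in control and 77013, 83710.2 and 78837 with LPS, and 0 genes went the opposite way.

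Sensors of foreign nucleic acid were called higher in 16 of 16 cases (13 on the same-sum scale). Zbp1, which senses left-handed nucleic acid and can start necroptosis, was at 20.7, 24 and 30.2 in control and 15940.4, 17732 and 16868 with LPS. Ifih1 (MDA5) went from 3.88 ± 2.23 to 1229.8 ± 23.9, Ddx58 (RIG-I) from 454 ± 85.7 to 25064 ± 913 and Eif2ak2 (PKR) from 3315 ± 97.6 to 20698 ± 1192. Mb21d1 (cGAS), a sensor of DNA, rose 1.66-fold and its adaptor Tmem173 (STING) 1.22-fold, the latter not called on the same-sum scale. In the PARP list 10 of 14 rose, led by Parp14 (from 576 ± 83.1 to 35152 ± 3099) and Parp9, whereas Parp1, the main DNA-damage PARP, fell 1.5-fold.

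Some of the genes at least 4-fold higher lay in chains along the chromosomes. Of 543 such genes with a position on GRCm39, 106 (19.5%) were in 16 chains of at least 4 with starts at most 100 kb apart. Chains were built only from genes at least 4-fold higher, and those genes set each span. High shares within a span are therefore largely fixed by the rule and are given as a description. The longest chain held the p200 genes on chromosome 1 (chr1:173296051-173859456), where 15 of 15 tested genes were at least 8-fold higher. A second chain on chromosome 1 (chr1:84968359-85305117) had 12 of 13 tested genes, all listed by clone or model number (among them C130026I21Rik, named Sp140l2 in GENCODE M39), with log2 changes of 2.91 to 5.91. The Irgm1 to Ifi47 chain on chromosome 11 had 10 of 11, the Schlafen chain 9 of 9, the Trim34 and Trim30 chain on chromosome 7 8 of 8, the Ifit chain on chromosome 19 6 of 6, and the Gbp chain on chromosome 3 4 of 4. The chain with Ccl5, Ccl9, Ccl3 and Ccl4 on chromosome 11 had 7 of 9 and included the antiprotease-like genes Wfdc17 and Wfdc18. Of 43 tested genes that start within 100 kb outside these chains, 16 were called higher, 13 lower and 0 at least 4-fold higher (the last fixed by the rule). Their median log2 change was 0.069, and over all genes tested 26.7% were higher and 32.0% lower. Within chains the genes are often copies of each other, so they are not independent.

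**Figure D4:**
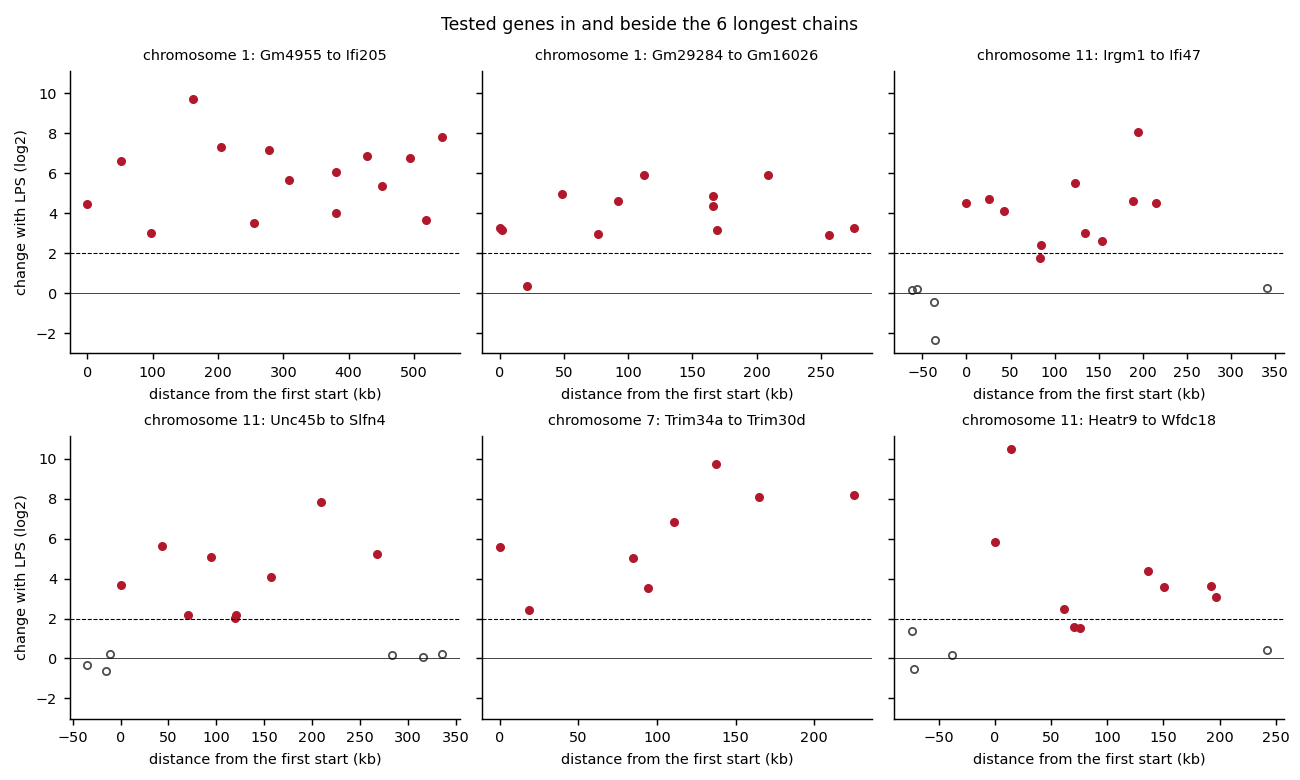
Log2 change with LPS (vertical axis) of every tested gene against its start, as distance in kb from the first gene of the chain (horizontal axis), for the 6 longest chains and 100 kb on each side. Filled points are genes within the span of the chain, open points those outside it, and the dashed line marks a 4-fold rise. In the 3 chains that have tested neighbours every open point lies below the dashed line.

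Among cytokines, the interleukin 1 family had 11 of 12 tested genes higher and 0 lower (median log2 change 4.28). Il1a was at 29.4, 52 and 40.2 in control and 25585, 27284 and 24298 with LPS, and the alarmin Il33 at 0, 2.0 and 0 and 211, 192 and 168. The receptor antagonist Il1rn, already at 7639 ± 93.3, rose to 92421 ± 1115. In the interleukin 6 and 12 families, Il27, a cytokine that restrains T cells, rose 197-fold (from 29.7 ± 5.59 to 5842 ± 463), and its other chain Ebi3 3.4-fold. Lif went from 42.2 ± 10.5 to 1232 ± 2.89, Il23a from 18.9 ± 6.25 to 81.9 ± 12.5 and Osm from 353 ± 21.5 to 1095 ± 59.8. Csf1, the growth factor of macrophages, was at 33.4, 22 and 8.05 in control and 1427, 1536 and 1383 with LPS, while its receptor Csf1r and the other ligand Il34 were lower (1.71-fold and 2.15-fold).

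Several receptors and ligands of the tumour necrosis factor family rose. Tnfrsf1b (TNFR2) was at 1567, 1534 and 1542 in control and 37668, 38891 and 38520.3 with LPS, 24.8-fold higher, whereas Tnfrsf1a (TNFR1) rose 1.69-fold (adjusted p of 4.1e-08 or less). Cd40, the receptor for T cell help, went from 77.1 ± 12.2 to 16530.3 ± 1297, and Fas from 23.2 ± 9.18 to 532 ± 59.5. Ltb rose 4.87-fold and Lta, at low level, 15.9-fold. Over the receptor list 11 of 17 were higher and 3 lower, the lower ones including Tnfrsf11a (RANK), 1.3-fold.

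Of 11 tested CC chemokines 10 were higher and 0 lower, with a median log2 change of 4.40. Ccl7, which recruits monocytes, was at 23.9, 4.0 and 16.1 in control and 6005, 6289 and 6268 with LPS, and Ccl22, a ligand of CCR4 on regulatory T cells, at 41.3, 44 and 34.2 and 4390.1, 4999 and 4326. Cxcl14, one of 8 CXC genes tested, fell 1.81-fold (from 4133 ± 221 to 2289.6 ± 124) while the other 7 rose. Receptors for chemoattractants split, 14 higher and 6 lower of 22. The atypical receptor Ccrl2 went from 57.9 ± 10.5 to 4379 ± 241, Ccr1 from 1269.7 ± 56 to 6906 ± 206, Gpr84, a receptor of medium-chain fatty acids, from 164 ± 6.27 to 2689 ± 162, and Hcar2, the niacin and butyrate receptor, from 437 ± 15.8 to 3173 ± 95. Those that fell were Cxcr4, Gpr183 (from 2575 ± 62.6 to 811 ± 79.1), which follows oxysterols, S1pr1 (from 821 ± 56.6 to 336 ± 3.64), Gpr132, C5ar2 (not called without control replicate 3) and Cx3cr1 (from 3568 ± 108 to 2086 ± 146). C5ar1 and C3ar1, the signalling receptors for complement fragments, rose 3.76-fold and 3.19-fold.

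At the cell surface, most genes of class I presentation rose. Of 24 class I and peptide-loading genes 22 were higher and 1 lower. H2-T24, a non-classical class I gene, went from 359.8 ± 103 to 12385 ± 234, the transporter subunit Tap1 rose 11.8-fold, B2m 2.44-fold, and Nlrc5, the class I transactivator, 7.19-fold. All 6 immunoproteasome and PA28 genes were higher, from 3.0-fold (Psmb8) to 5.61-fold (Psmb10). Of 10 class II genes 1 was higher and 2 lower (1 and 5 on the same-sum scale), and H2-DMb2 fell 3.13-fold. Cd74, the invariant chain, was at 5697, 5587 and 6158 in control and 5429, 6454 and 6047 with LPS, overlapping ranges (log2 change 0.038 ± 0.065, adjusted p = 0.645; called lower on the same-sum scale). In the checkpoint list Lgals9 went from 84.1 ± 22.6 to 8487 ± 417, Cd274 (PD-L1) from 386 ± 27.8 to 4229 ± 240.4 and Cd47, the signal against being eaten, from 1626 ± 129 to 7969.8 ± 213, while Cd276 fell 2.19-fold.

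Receptors for antibody moved in both directions. Fcgr1, the high-affinity activating receptor, was at 366, 339 and 441 in control and 4775, 5146 and 5067 with LPS, and Fcgr4 went from 371 ± 19.4 to 3757 ± 328, but Fcgr3, another activating receptor, fell 2.14-fold (from 989 ± 70.3 to 461 ± 29.7). The inhibitory Fcgr2b rose 1.73-fold. Siglec1, which binds sialic acid and is used to mark an interferon response in monocytes, was at 200.4, 259 and 309.8 and 12291, 11902 and 11387. The Src-family kinases Lyn and Fgr rose 3.89-fold and 3.13-fold. Clec4e (Mincle) rose 7.15-fold (from 4497 ± 108 to 32136 ± 462), and Clec4a2 and Clec4a3 fell 3.26-fold and 2.16-fold. Among receptors for lipoproteins and dying cells, Msr1 rose 3.02-fold and Axl 1.81-fold, whereas Trem2, a lipid receptor of tissue macrophages, fell 1.97-fold (from 31654 ± 1034 to 16106 ± 1367) and Gas6, the ligand of Axl, 3.39-fold (from 704 ± 20.0 to 208 ± 7.78).

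Of 16 metalloproteinase and TIMP genes 11 were higher and 3 lower, and of 17 genes of plasminogen activation and coagulation 10 and 2 (10 and 5 on the same-sum scale). Mmp9, the gelatinase, was at 1186, 1282 and 1297 in control and 32726, 33762 and 31592 with LPS, 26.1-fold higher (adjusted p = 1.24e-15), and Mmp13 went from 3.21 ± 4.26 to 382 ± 18.4. Their inhibitor Timp1 rose 4.8-fold and Timp2 fell 1.66-fold. Plaur, the urokinase receptor, went from 2531 ± 239 to 24445 ± 925 and urokinase itself (Plau) from 63831 ± 2064 to 143772 ± 3199. Tissue factor (F3), which starts coagulation, rose 4.93-fold (from 174 ± 9.23 to 856 ± 25.2) and thrombomodulin (Thbd), which restrains it, fell 2.1-fold (from 74.6 ± 8.58 to 35.5 ± 5.96). Complement C3 rose 17-fold (from 197 ± 5.86 to 3336 ± 341). The integrin Itga5, a fibronectin receptor chain, rose 4.32-fold (from 10827 ± 377 to 46804 ± 1693) and Itgb5 fell 2.36-fold.

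In cell death pathways, Casp4 (caspase-11 protein), a direct cytosolic receptor for LPS, was at 629.7, 605 and 633 in control and 5773, 5904 and 5714 with LPS. The inflammasome sensor Nlrp3 rose 7.67-fold, Casp1 3.44-fold, Gsdmd, which forms the pores of pyroptosis, 2.45-fold and Mlkl, which does so in necroptosis, 6.51-fold. Ripk3, upstream of Mlkl, was at 1423 ± 17.2 and 1439 ± 47.5 and was not called as deposited, but was called lower on the same-sum scale. P2rx7, the ATP channel that triggers NLRP3, fell 1.54-fold (from 7907 ± 305 to 5126 ± 195). In the BCL2 family the survival gene Bcl2a1d went from 247 ± 30.2 to 2440.3 ± 333 and Bcl2l1 rose 2.72-fold, the death activator Bmf was at 311, 313 and 302 in control and 69.2, 51.6 and 56.5 with LPS (5.22-fold lower), and the death activator Bcl2l11 (BIM) rose 2.02-fold. Cflar, which blocks caspase-8, rose 4.39-fold and Casp8 3.16-fold. Bcl2a1a, Bcl2a1b and Bcl2a1d are near-identical copies.

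Of 17 genes of nitric oxide, arginine and itaconate metabolism 8 were higher, all at least 2-fold, and 2 lower (8 and 8 on the same-sum scale). Beside Nos2, the inducible nitric oxide synthase, its cofactor enzyme Gch1 went from 1001 ± 46.6 to 5562 ± 292 and its substrate-recycling enzyme Ass1 from 0.932 ± 1.01 to 21.2 ± 8.8. Arg2, the mitochondrial arginase, went from 47.5 ± 15.4 to 346 ± 31, and Arg1 was at 9.17 ± 7.27 and 15.4 ± 2.35 (not called, except without control replicate 1). In eicosanoid synthesis the 2 cyclooxygenases moved in opposite directions. Ptgs2 (COX-2) was at 111, 127 and 90.5 in control and 19961, 16367 and 18809 with LPS, 168-fold higher, and Ptgs1 (COX-1) fell from 4981, 4973 and 4992 to 1463, 1448 and 1431, 3.44-fold (adjusted p of 7.6e-12 or less). Ptges, the inducible prostaglandin E synthase, went from 248 ± 4.37 to 5795 ± 299, while the leukotriene genes Alox5 (from 2434 ± 147 to 721 ± 52.4), Ltc4s (from 175 ± 16.5 to 61.3 ± 7.06), Alox5ap and Lta4h all fell, as did Hpgds and Tbxas1, which make prostaglandin D and thromboxane.

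Energy metabolism changed less, and its counts depended on the scale. The list of glycolysis, pentose phosphate and HIF genes gave 11 higher and 15 lower of 39 (6 and 26 on the same-sum scale). In glycolysis the glucose transporter Slc2a1 rose 2.11-fold (from 11767 ± 398 to 24844 ± 384), Hk2 2.07-fold and Hk3 2.06-fold, while Pfkm fell 2.27-fold and the hypoxia factor Epas1 (HIF-2 alpha) 4.27-fold (from 930.0 ± 42.8 to 218 ± 9.77). TCA cycle genes gave 1 higher and 17 lower of 29 (0 and 27 on the same-sum scale), with the largest fall in the cytosolic isocitrate dehydrogenase Idh1 (from 5831 ± 168 to 2541 ± 118, 2.29-fold lower). Most nuclear-encoded respiratory chain subunits were not called, with 4 higher and 11 lower of 71 as deposited, 9 and 9 with TMM and 0 and 56 on the same-sum scale. Ribosomal proteins likewise went from 38 higher and 0 lower of 60 to 0 and 5 on the same-sum scale and 1 and 41 after quantile normalization, so no direction is read for them.

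Lipid genes fell on balance, 9 higher and 25 lower of 44 fatty acid genes. Acadm, which oxidises medium-chain fatty acids, fell 2.11-fold (from 3835 ± 114 to 1818 ± 139), the elongase Elovl6 2.47-fold and the desaturase Scd1 2.57-fold (from 3972 ± 127 to 1548 ± 183). Against this, the lipid droplet protein Hilpda went from 571 ± 59.4 to 3077 ± 51, the lipid chaperone Fabp4 from 434 ± 33.1 to 2175 ± 111 and the arachidonate-activating Acsl4 from 7219 ± 395 to 15716 ± 1781. Genes of cholesterol synthesis and uptake gave 3 higher and 21 lower of 28 (1 and 24 on the same-sum scale). LXR targets and oxysterol genes gave 2 higher and 8 lower of 15 (2 and 10 on the same-sum scale). In contrast, Npc2, which passes cholesterol out of lysosomes, rose 3.0-fold (from 14478 ± 409 to 43383 ± 2643), and Npc1 1.59-fold.

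Iron and redox genes included large moves both ways. Lcn2 (lipocalin-2), which captures bacterial siderophores, was at 111, 96 and 101 in control and 2509, 2679.7 and 2343 with LPS. The iron exporter Slc40a1 (ferroportin) fell 2.63-fold (from 1716 ± 85.7 to 653 ± 30.1) and the ferrireductase Steap3 3.25-fold (from 4304 ± 78.9 to 1325 ± 121). The iron carriers Slc11a2 and Slc25a37 rose 3.38-fold and 2.87-fold. Over the iron list the split was 9 higher and 7 lower of 22, and 7 and 9 on the same-sum scale. Cybb, the membrane subunit of the phagocyte NADPH oxidase, was at 6423, 7113 and 6294 in control and 60059, 51862 and 54776 with LPS (8.41-fold). The mitochondrial dismutase Sod2 went from 7358 ± 346 to 40935 ± 1274 and the peroxiredoxin Prdx5 from 4443 ± 114 to 23439.5 ± 2186, whereas Gclc, the rate-limiting enzyme of glutathione synthesis, fell 2.36-fold (from 5277 ± 110.0 to 2233 ± 84.2).

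Genes of cell division fell together by small amounts. Of 55 mitosis genes 53 were lower and 1 higher, with a median log2 change of -0.65 beside -0.042 over all genes, and 54 and 0 on the same-sum scale. The condensin subunit Ncapd2 was at 9928, 9807 and 10359 in control and 4453, 4484 and 4748 with LPS, 2.2-fold lower, and the spindle motor Kif11 2.13-fold. Of 56 DNA repair genes 39 were lower and 4 higher, with Chek2 2.35-fold and Brca2 2.01-fold lower, and Ercc1 2.12-fold higher. Timeless, a partner of the replication fork, rose 2.76-fold against 36 of 49 replication genes that fell. Among regulators of the G1 phase the cyclin Ccnd1 rose 2.34-fold (from 21542 ± 235 to 50434 ± 881) and Cdk6 2.18-fold, while the E2F partner Tfdp2 was at 1362, 1622 and 1441 in control and 363, 342 and 306 with LPS, and the pocket proteins Rbl2 and Rb1 fell 2.53-fold and 2.1-fold.

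The MYC genes moved in opposite directions. Myc was at 125, 147 and 147 in control and 3625, 4042 and 4043 with LPS, 28-fold higher, and Mycn fell from 37159, 35092 and 38162 to 19974, 23219 and 21959.8, 1.69-fold (adjusted p of 1.73e-07 or less). The MAX partners Mxd1 and Mxd4, which oppose MYC, rose 10.3-fold and fell 7.65-fold. In the p53 list Plk2 rose 4.5-fold (from 8356 ± 310.1 to 37566 ± 34), Mdm2 2.26-fold and Cdkn1a 1.89-fold, whereas Sesn1, Trp53inp1 and Phlda3 fell 3.31-fold, 3.55-fold and 2.37-fold. The counts in that list were 10 higher and 9 lower of 26, beside 26.7% and 32.0% of all genes tested, and 7 and 13 on the same-sum scale.

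Transcription factors of the myeloid lineage and nuclear receptors also split. Cebpd went from 392 ± 21.6 to 3389 ± 379.5 and Cebpb from 4358 ± 129 to 16062 ± 968, while Cebpa, the factor of granulocyte and monocyte development, fell 4.11-fold (from 142 ± 18.7 to 34.7 ± 9.49) and Tfeb, the regulator of lysosomal genes, 2.88-fold (from 1256 ± 70.9 to 436 ± 64.5). Nr1d1 (REV-ERB alpha), a repressor of the circadian clock, was at 479, 477 and 557 in control and 3124, 3254 and 2888 with LPS, 6.12-fold higher, and the clock gene Npas2 went from 13.1 ± 4.31 to 0.782 ± 1.36. The retinoid receptors Rarb and Rxra fell 6.52-fold and 1.54-fold. Of 18 histone deacetylases and sirtuins 3 were higher and 8 lower (1 and 13 on the same-sum scale), beside 26.7% and 32.0% of all genes tested. The class II enzyme Hdac9 was at 1752, 1967 and 1837 in control and 602, 465 and 472 with LPS, 3.61-fold lower, Hdac11 fell 3.95-fold, Hdac5 2.14-fold and Hdac4 1.88-fold, and Hdac1 rose 1.61-fold. Among histone methylation genes the methyltransferase gene Setdb2 rose 3.97-fold and the demethylase gene Kdm6b 2.12-fold, and Tet2, which oxidises methylated cytosine and was counted in the same list, rose 2.55-fold.

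Lysosome, purine and bone-resorption genes showed single large moves rather than a common direction. Of 50 lysosomal genes 19 were higher and 20 lower, beside 26.7% and 32.0% of all genes tested, and 11 and 28 on the same-sum scale. The protease Ctsl rose 2.64-fold (from 19974 ± 398 to 52688 ± 1312) and the channel Mcoln2 4.25-fold, while the sulfatase Sgsh fell 3.87-fold (from 3088 ± 116 to 797 ± 8.91) and the acid lipase Lipa 1.89-fold (from 27338 ± 796 to 14460.4 ± 171). The autophagy receptor Sqstm1 (p62) rose 2.06-fold, and the kinase Ulk1, which starts autophagy, fell 1.72-fold. Adora2b, a receptor for adenosine that restrains macrophages, was at 372, 360.0 and 389 in control and 2165, 2130.3 and 2291 with LPS, 5.87-fold higher, and Nt5e, which makes adenosine, fell 2.07-fold. In the osteoclast list the kinase Src rose 5.3-fold (from 5129 ± 101 to 27202 ± 1040.1), whereas the master factor Nfatc1 fell 1.43-fold and Acp5 1.5-fold. Among growth factors Vegfc rose 4.08-fold, Hbegf 3.78-fold and Tgfb1 1.99-fold, and Igf1 fell 1.58-fold (from 9441 ± 519 to 5983 ± 105). Deptor, which binds and restrains mTOR, fell 5.76-fold, and 15 of 27 mTOR pathway genes were lower and 6 higher (20 and 3 on the same-sum scale).

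The largest fall by fold among genes with a control mean of at least 100 was that of Pacsin1, a membrane-bending protein best known from neurons, which was at 164, 133 and 161 in control and 0, 11.7 and 5.65 with LPS (26.3-fold lower, adjusted p = 3.61e-05). Tns1 (tensin-1), which links integrins to actin, was at 258, 324 and 356 and 16, 24.6 and 16.9, 16.3-fold lower. Klhl30 was 23.4-fold lower and the mRNA-binding Cpeb1 8.87-fold. The ligase Trim47 fell 5.92-fold and the translation inhibitor Pdcd4 5.25-fold (from 347 ± 55.1 to 66.1 ± 2.39). In the list of arrestins and G-protein regulators, 6 of 19 were higher and 9 lower (5 and 12 on the same-sum scale), beside 26.7% and 32.0% of all genes tested. Arrb1 (beta-arrestin 1), which uncouples and internalises receptors, had the largest fall of that list, 7.22-fold (from 7087 ± 378 to 981 ± 99.3), and Pde4d fell 2.44-fold and Rgs12 2.13-fold, while Rgs16 rose 17.6-fold (from 76.4 ± 11.1 to 1342 ± 76.4) and Pde4b 9.69-fold.

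**Figure D5:**
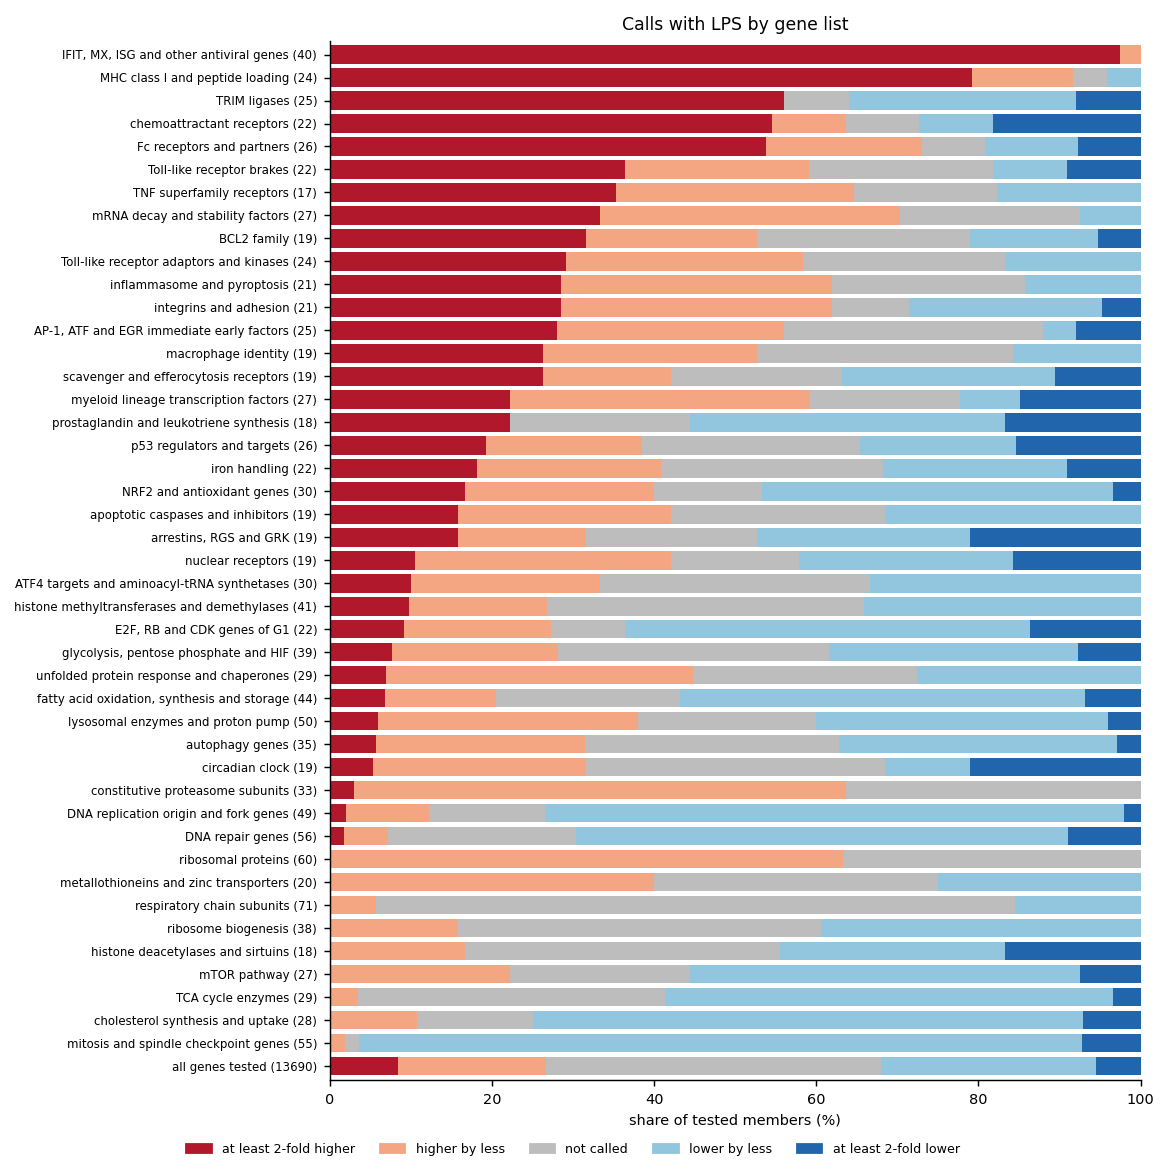
Members of the 44 lists with the most tested genes, by call: share of tested members at least 2-fold higher, higher by less, not called, lower by less and at least 2-fold lower (horizontal axis, percent; number tested beside each name). The last bar gives the same for all 13690 genes tested, of which 8.42% were at least 2-fold higher and 5.52% at least 2-fold lower, and the antiviral list at the top is almost wholly in the first class.

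Of 453 long noncoding RNA genes tested, 98 were higher, 72 of them at least 2-fold, and 49 were lower, 30 at least 2-fold. Over all genes tested 26.7% were higher (8.42% at least 2-fold) and 32.0% lower (5.52% at least 2-fold). Gm26667, named Mir155hg in GENCODE M39 and the precursor of the inflammatory microRNA miR-155, was at 1.59, 0 and 4.02 in control and 79.2, 92.7 and 77.7 with LPS (log2 change 5.16 ± 0.55, adjusted p = 3.78e-06). Ptgs2os2, which lies near Ptgs2 on the opposite strand, went from 17.6 ± 12.6 to 114 ± 17.2. Gm26667 was chosen after its values were seen.

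The libraries expressed the markers of macrophages in both groups. Of 19 tested identity genes 10 were higher and 3 lower with LPS, and 9 and 9 on the same-sum scale. Emr1 (F4/80) went from 3690.1 ± 277 to 7881 ± 281 and Mpeg1 from 33614 ± 1446 to 90400.2 ± 4263. Csf1r, among the lower ones, went from 42749 ± 954 to 25016 ± 549.7. Lyz2 was at 255390 ± 9279 and 268185 ± 13538 (not called as deposited, called lower on the same-sum scale). Markers of other cells were sparse: 0 of 10 fibroblast and 0 of 8 hepatocyte markers had enough reads to test, and 3 of 12 neutrophil, 2 of 12 T cell, 1 of 12 B cell and 4 of 10 endothelial markers had. The neutrophil markers summed to between 38.2 and 70.0 in control and between 146 and 166 with LPS, mostly S100a8 and Csf3r, with S100a9, Mpo and Retnlg without reads. The T cell markers summed to between 496 and 552 in control and between 1322 and 1491 with LPS, nearly all of it Lck, with Cd3e, Cd3g and the receptor constant genes Trac, Trbc1 and Trbc2 without reads. Endothelial markers summed to between 1943 and 2107 in control and between 1014 and 1116 with LPS, mostly Vwf, with Cldn5 and Emcn without reads. Fibroblast markers summed to at most 23.5 and hepatocyte markers to at most 2.0. The B cell markers summed to between 16.7 and 29.0 in control and between 89.0 and 126 with LPS, most of it Pax5, which was at 0, 0 and 0 in control and 95.2, 91.6 and 72 with LPS, while Ms4a1 had no reads. The part of any other cell type in the results above was not tested.

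The genes Ccr1, Cdkn1a, Cx3cr1, Fcgr2b, Fcgr3, Fgr, Gpr132, Gpr183, Igf1, Lyn, Mdm2, Phlda3 and S1pr1 were named after their values were seen, and every other gene by the rule given with the methods unless stated.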

How the data were processed

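RNA was sequenced from RAW264.7 cells. Per the study's methods the authors trimmed reads with Trimmomatic, aligned them with HISAT2 and counted unique alignments with featureCounts, whereas in GEO the submitters listed STAR 2.7.7a, DESeq2 and the build mm39 among their processing notes; which applies, and the strand setting of the counting, are not given in the sources used here. The deposited values are a signal, gene counts that the authors divided by 1 size factor per library and not by gene length, although the files are labelled FPKM. Whole reads were recovered for 100% of values (tolerance 0.001), but in control replicates 2 and 3 and LPS replicate 1 a read was worth within 1% of 1, where that check says little.

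The 3 LPS and 3 control libraries were compared with limma 3.58.1 in R 4.3.3 (intensity trend, two-sided) on log2(value + 1), over genes with at least 10 normalised counts in at least 3 of the 6 libraries, with Benjamini-Hochberg adjustment. Calls required an adjusted p under 0.05. Of 43629 identifiers, 38984 matched GENCODE M39, which gave the positions on GRCm39. The fit was tested on simulated data. Alternatives were other pseudocounts, filters and scalings, edgeR 4.0.16 and DESeq2 1.42.0 on recovered reads, and leaving out each library.

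Members and lists were chosen with earlier results of these data known. The text names genes among the 30 largest rises and 30 largest falls (called, groups not overlapping, mean of at least 100), the 10 largest gains and losses in counts, the 6 largest called changes of each of 88 lists, any member of a list of at most 30 genes, and the members of chains of neighbouring genes; every exception is stated.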

Additional observations from a re-analysis of the deposited data

How the results depend on the processing

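Totals of 8037 called genes and 1909 called at least 2-fold were within 1.5 times under every alternative, except that limma on variance-stabilised reads gave 1108 genes at least 2-fold (248 lower). With every library scaled to the same sum, 2200 genes were called higher, 6932 lower and 1293 at least 2-fold lower, because log2 changes shift by -0.23. Leaving out 1 library at a time gave 7189 to 8156 called genes, 3280 to 3672 higher and 3879 to 4484 lower, and at least 2-fold 1834 to 1973, 1126 to 1163 higher and 708 to 811 lower. Quantile normalization gave 3043 higher and 5238 lower, edgeR on recovered reads 4040 and 4046, and DESeq2 4015 and 3888. The split of calls into higher and lower moved by over 10 percentage points on the same-sum scale in 42 of 88 lists, after quantile normalization in 19, and in 0 to 7 under each other alternative (4 with TMM, 4 with edgeR and 3 with DESeq2).

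Of 307 named genes, Rela, Ifnar1 and Tmem173 were not called on the same-sum scale, and 4 genes not called as deposited were called with the opposite sign there, Cd74 at -0.19, Ifnar2 at -0.22, Lyz2 at -0.16 and Ripk3 at -0.21. mt-Co1 was called lower there and after quantile normalization. C5ar2 was not called without control replicate 3 (adjusted p = 0.0528 with limma), Arg1 was called without control replicate 1 and Csf3r without control replicate 2. A filter of at least 50 left 11 named genes untested. No other named gene changed its call under the alternatives run.

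Control and LPS libraries of the same replicate number did not deviate together (correlations of -0.012, -0.050 and -0.0080 across genes), so no shared effect of the number was seen. These correlations cannot tell whether cultures of the same number were set up or harvested together. A fit with the replicate block gave 7492 called genes, 3390 higher and 4102 lower. Genes with a mean under 30 normalised counts had a median standard error of 0.452 on the log2 scale, against 0.0502 above 10000, so small changes of low genes were not detectable at this depth.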

Other observations

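Many strongly changed genes belonged to none of the 88 lists, and the following were chosen after their values were seen. Marcksl1, an actin-binding protein kinase C substrate, was at 1739.6, 1621 and 1662 in control and 77278, 88986 and 88042 with LPS, 50.6-fold higher (log2 change 5.66 ± 0.058, limma adjusted p = 8.03e-16). Hdc, the enzyme that makes histamine, was at 11.1, 6.0 and 16.1 and 6153, 6356 and 5584. Slc15a3, a lysosomal transporter of peptides and muramyl dipeptide, went from 1035 ± 13 to 26284 ± 1803. Saa3, an acute-phase protein, went from 76.7 ± 15.5 to 2845 ± 419, the antiprotease Slpi from 118 ± 28.4 to 4274 ± 178, the mucin-type glycoprotein Pdpn from 252 ± 15.1 to 5586 ± 254 and Upp1, which splits uridine, from 17.2 ± 14.1 to 909.9 ± 70.7. The decoy receptor Il13ra2 went from 27.1 ± 6.99 to 509 ± 81.3 and Il15, a cytokine for natural killer cells, from 119.5 ± 34.3 to 1190.0 ± 140.0. For each of these genes the lowest LPS library was above the highest control library, as it was, in one direction or the other, for 64.0% of all genes tested.

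Among falls outside the lists, Ndrg4 was at 15783, 15413 and 15139 in control and 4388, 4453 and 4361 with LPS, 3.51-fold lower (adjusted p = 1.72e-12), and the related Ndrg2 went from 5394 ± 204 to 1744 ± 64.6. Tbc1d4, which controls the glucose transporter GLUT4, went from 1100.0 ± 69.8 to 252 ± 34.5, Lpin1, a phosphatidate phosphatase, from 1046 ± 47.8 to 274 ± 13.9 and Prkag2, a regulatory subunit of AMP kinase, from 1391 ± 44.9 to 378 ± 15.9. The immunoglobulin variable gene Ighv14-1 was at 0, 0 and 0 in control and 47.1, 71.6 and 35.3 with LPS and Ighv14-4 at 0, 2.0 and 0 and 68.2, 54 and 29.7, in the same libraries in which Pax5 rose. B cell genes Ms4a1 and Ighd had no reads in any of them.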
